A study of Mus musculus with 8 samples.

Results

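The respiratory chain and the ATP synthase of the mitochondrial inner membrane were described through the 94 gene symbols, of 24421 symbols in the count files, that name their nuclear-encoded parts. A symbol was taken where it begins with Nduf, Uqcr, Atp5 or Cox followed by 4 to 8, where it is one of the genes Sdha, Sdhb, Sdhc and Sdhd, or where it is Cycs or Cyc1. By role, 85 are subunit genes and 7 are Ndufaf genes, whose products assemble complex I. The other 2 are Atp5s and Atp5sl, which carry the Atp5 name without encoding a subunit. The subunit genes divide into 36 of complex I, 4 of complex II, 9 of complex III, 1 for cytochrome c, 20 of complex IV and 15 of complex V, the ATP synthase.

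In the chain, complex I (NADH dehydrogenase) and complex II (succinate dehydrogenase) pass electrons to coenzyme Q. Complex III hands them to the small soluble protein cytochrome c, and complex IV (cytochrome c oxidase) gives them to oxygen. Complexes I, III and IV pump protons as they do so, and complex V lets the protons back to make ATP. Naive T cells are resting cells that rely largely on this oxidative route. All the subunits of complex II and cytochrome c are encoded in the nucleus, whereas the other complexes also hold subunits made from mitochondrial DNA. None of the 13 protein genes of mitochondrial DNA is among the rows used here, so every value below is for nuclear genes.

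RNA came from naive CD4+ T cells, purified with an isolation kit from the spleens of male C57BL/6 mice aged 6 to 8 weeks, and was sequenced as 4 libraries titled E1KO and 4 titled E1WT. E1 stands for hnRNP E1, the other name of the RNA-binding protein PCBP1. The E1KO title belongs to mice with a floxed Pcbp1 gene and Cd4-Cre, and the E1WT title to wild-type mice, by the words of the titles and the protocol. The genotype field says the opposite of the title in all 8 samples: it gives Pcbp1+/+Cd4-Cre (WT) for the E1KO titles and Pcbp1fl/flCd4-Cre (KO) for the E1WT titles, so that by this field both groups carry Cd4-Cre. Libraries were grouped by title, and grouping by the genotype field would turn every direction below round. Cd4-Cre acts from the thymocyte stage that carries both CD4 and CD8, so the deletion is not specific to CD4+ cells.

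Pcbp1 had 38.8, 39.8, 41.2 and 42.4 CPM (counts scaled to 1000000 gene counts a library) in the E1KO libraries, against 217.5, 240.3, 221.6 and 196.0 CPM in the E1WT libraries, so the targeted gene was low in every library with the KO title. Xist, the RNA that coats an inactive X chromosome, had 378 to 433 CPM in the E1KO libraries and 0.544 to 2.82 CPM in the E1WT libraries, although the labels call all mice male. Differences between the titles therefore cannot be told apart from this sex signal. Counts per library came to 28264655 to 36738202 over all genes. A set of 7 marker genes of naive CD4+ T cells (Cd3d, Cd3e, Cd4, Lef1, Tcf7, Ccr7 and Il7r) summed to 4300 to 4490 CPM in E1KO and to 4910 to 5050 CPM in E1WT. All 7 had a negative log2 fold, and 2 of them, Tcf7 and Cd4, were lower by edgeR at an adjusted p under 0.05. The 5 monocyte and macrophage markers summed to 84.5 to 100 CPM in E1KO and 36.2 to 44.3 CPM in E1WT, and 5 of 5 were higher by edgeR's quasi-likelihood test at an adjusted p under 0.05. The 8 dendritic cell markers summed to 73.1 to 89.7 CPM in E1KO and 57.8 to 70.5 CPM in E1WT, with 6 of 8 higher. The 8 erythroid markers summed to 93.3 to 127 CPM in E1KO and 33.6 to 47 CPM in E1WT. The globin genes Hba-a1, Hba-a2, Hbb-bs and Hbb-bt were at 0. Of the 4 erythroid markers tested, 2 were higher, Car1 and Slc4a1. Car1 made up most of the sum, averaging 105 CPM in E1KO and 34.5 CPM in E1WT. Alas2 went the other way, averaging 1.15 CPM in E1KO and 1.87 CPM in E1WT, and did not pass the threshold. The 3 plasma cell markers summed to 800 to 1000 CPM in E1KO and 515 to 728 CPM in E1WT. Most of that sum was Jchain, the 1 higher, at a mean of 821 CPM in E1KO and 544 CPM in E1WT. The 4 NK cell markers summed to 41.1 to 45.5 CPM in E1KO and 34.9 to 38.3 CPM in E1WT, with 2 higher. The 3 B cell markers overlapped, at 115 to 135 CPM in E1KO and 94.3 to 128 CPM in E1WT, with 0 past the threshold. The 2 CD8+ T cell markers also overlapped, at 20.5 to 28.8 CPM in E1KO and 24.6 to 30.7 CPM in E1WT, with Cd8a lower. The part of these cells in the results on respiratory chain genes was not tested.

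Of the 94 genes, 88 passed the filter on low counts and were tested. The genes Cycs and Cox6b2 were higher in E1KO and 0 were lower (edgeR's quasi-likelihood test, Benjamini-Hochberg adjusted p under 0.05 over all 13333 genes tested). That is 2.27% of the tested respiratory chain genes, while 23.3% of all tested genes passed the same threshold. Of all tested genes, 12.2% were higher and 11.1% lower. At an unadjusted p under 0.05, 7 were higher and 0 lower, where 35.9% of all genes reached that p in either direction. By DESeq2, 5 were higher (Cycs, Cox6b2, Cox5b, Sdhd and Atp5b) and 0 lower, which is 5.68% against 27.9% of all genes. All 4 E1KO libraries lay above all 4 E1WT libraries for 6 of the 88 genes (6.82%), namely Ndufv1, Cycs, Cox6b2, Atp5a1, Atp5b and Ndufaf7. The reverse held for 0 of them. Over all genes tested, groups did not overlap in 27.1%, with E1KO above in 18.7% and below in 8.44%. Overlap was judged, here and below, on CPM without the TMM scaling used for the folds. The TMM factors were 1.013 to 1.034 in E1KO libraries and 0.965 to 0.990 in E1WT libraries. CPM therefore stand relatively higher in E1KO. Divided by these factors, Ndufv1 and Atp5a1 overlap, since E1KO 2 falls below E1WT 2 for both. In E1KO 2 and E1WT 2 the CPM were 83.2 and 81.7 for Ndufv1 and 623 and 602 for Atp5a1. The factors of these libraries were 1.027 and 0.990. Cycs, Cox6b2, Atp5b and Ndufaf7 stay apart on that scale. The share over all genes was not checked on it. In bulk RNA, fewer cells of a type and less RNA per cell cannot be told apart.

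The folds were small and mostly positive. The median log2 fold of the 79 tested subunit genes, E1KO over E1WT, was 0.0807, against 0.00653 over all genes. A positive fold was found for 67 of the 79 subunit genes, against 50.9% of all genes at any p. The count moved with single libraries. Without E1WT 4 it was 43 of 79, without E1KO 3 it was 47 of 80, and the median fold ranged from 0.0109 to 0.173 as each library was left out. Complex I had a median log2 fold of 0.0779 over 35 tested subunits, complex II one of 0.106 over 4, complex III one of 0.111 over 9, complex IV one of 0.115 over 15 and complex V one of 0.0668 over 15. The 7 Ndufaf genes had 0.0975, and none of them passed the threshold by edgeR, with 1 under an unadjusted p of 0.05.

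**Figure D1:**
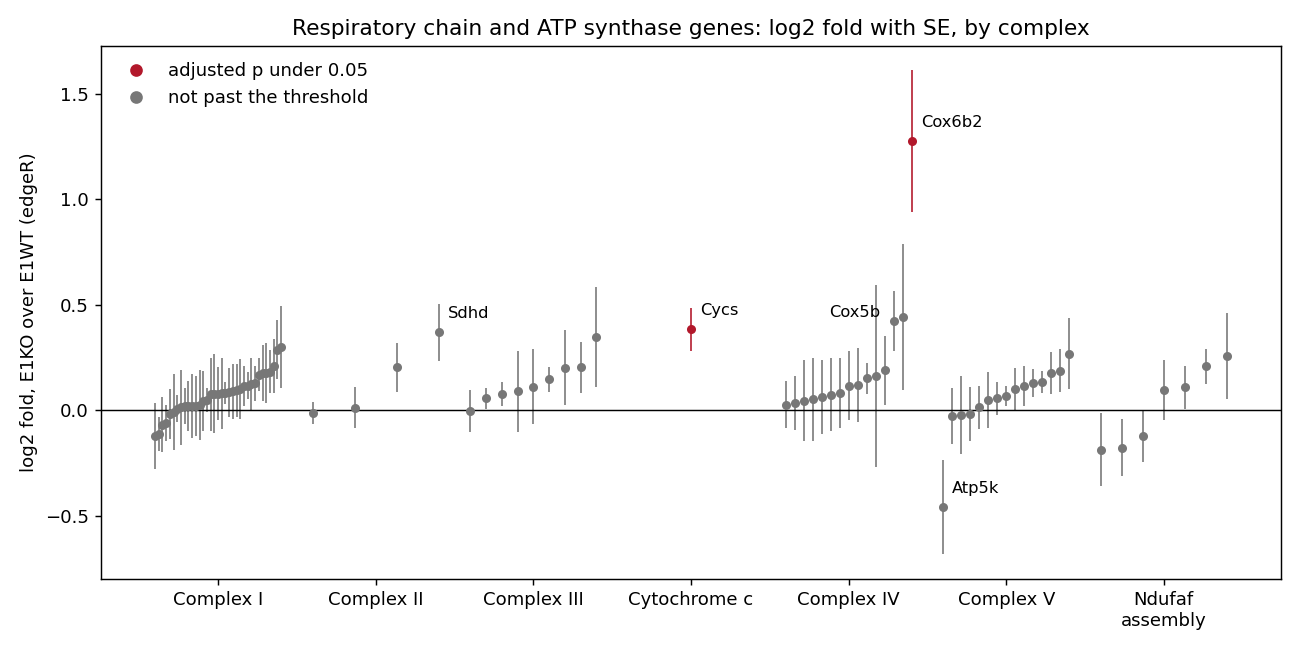
Log2 fold of each tested respiratory chain and ATP synthase gene, E1KO over E1WT (vertical axis, edgeR), with standard error as a line, grouped by complex along the horizontal axis and ordered by fold within each. Red points passed an adjusted p of 0.05. Cycs at 0.38 and Cox6b2 at 1.27 are the only red points, and Atp5k at -0.46 is the lowest point.

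Cycs encodes somatic cytochrome c, the carrier between complexes III and IV and, once released from mitochondria, a trigger of caspase activation. It lies on the minus strand of chromosome 6, at 50562563 to 50566538 in mm10. Its level was 53.7, 58.0, 71.9 and 67.0 CPM in E1KO libraries 1 to 4, against 47.2, 52.0, 46.1 and 38.7 CPM in E1WT libraries 1 to 4. The lowest E1KO library stood just above the highest E1WT library, and libraries 3 and 4 of E1KO were the high ones. The means were 62.7 ± 8.29 CPM in E1KO and 46.0 ± 5.51 CPM in E1WT (SD, n = 4 each), a log2 fold of 0.38 ± 0.10 (SE) with an edgeR adjusted p of 0.0185. The call ended without E1KO 3 (adjusted p = 0.0502) and without E1KO 4 (adjusted p = 0.0634). A share of 26.1% of the 75-base windows of its transcript also occurs in transcripts of 5 other genes, so its count is uncertain by whatever reads the authors' counting gave elsewhere.

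Cox6b2 encodes the testis isoform of a small subunit of complex IV that helps hold the paired enzyme together. It lies on the minus strand of chromosome 7, at 4751792 to 4753094. The counts were 69, 78, 134 and 130 reads in E1KO libraries, against 34, 66, 38 and 24 reads in E1WT libraries. As CPM these were 1.92, 2.43, 4.35 and 3.95 in E1KO, against 1.20, 1.80, 1.34 and 0.656 in E1WT. The groups did not overlap, and libraries 3 and 4 of E1KO were again the high ones. The log2 fold was 1.27 ± 0.34 (SE), with an edgeR adjusted p of 0.0182. It missed the threshold without E1KO 3 (adjusted p = 0.0531), without E1KO 4 (adjusted p = 0.0608) and without E1WT 1 (adjusted p = 0.0513). The somatic isoform gene Cox6b1, on the same per-length scale, stood at 95.3 CPM per kb of exon over all libraries, against 3.77 CPM per kb for Cox6b2, and its own log2 fold was 0.08 (edgeR adjusted p = 0.769).

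The genes next in order of p in their complexes were Cox5b and Sdhd. Cox5b, a zinc-binding subunit of complex IV, had 59.2, 65.9, 97.1 and 81.3 CPM in E1KO libraries, against 55.8, 63.3, 53.2 and 44.5 CPM in E1WT libraries. The groups overlapped through E1KO 1 and E1WT 2, and the log2 fold of 0.42 ± 0.14 (SE) had an edgeR adjusted p of 0.0502. Sdhd, a membrane anchor of complex II, had 45.2, 51.5, 65.2 and 64.0 CPM in E1KO libraries, against 40.0, 52.6, 40.7 and 34.2 CPM in E1WT libraries, so that E1WT 2 exceeded both E1KO 1 and E1KO 2. Its log2 fold was 0.37 ± 0.14 (SE), with an edgeR adjusted p of 0.0735.

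**Figure D2:**
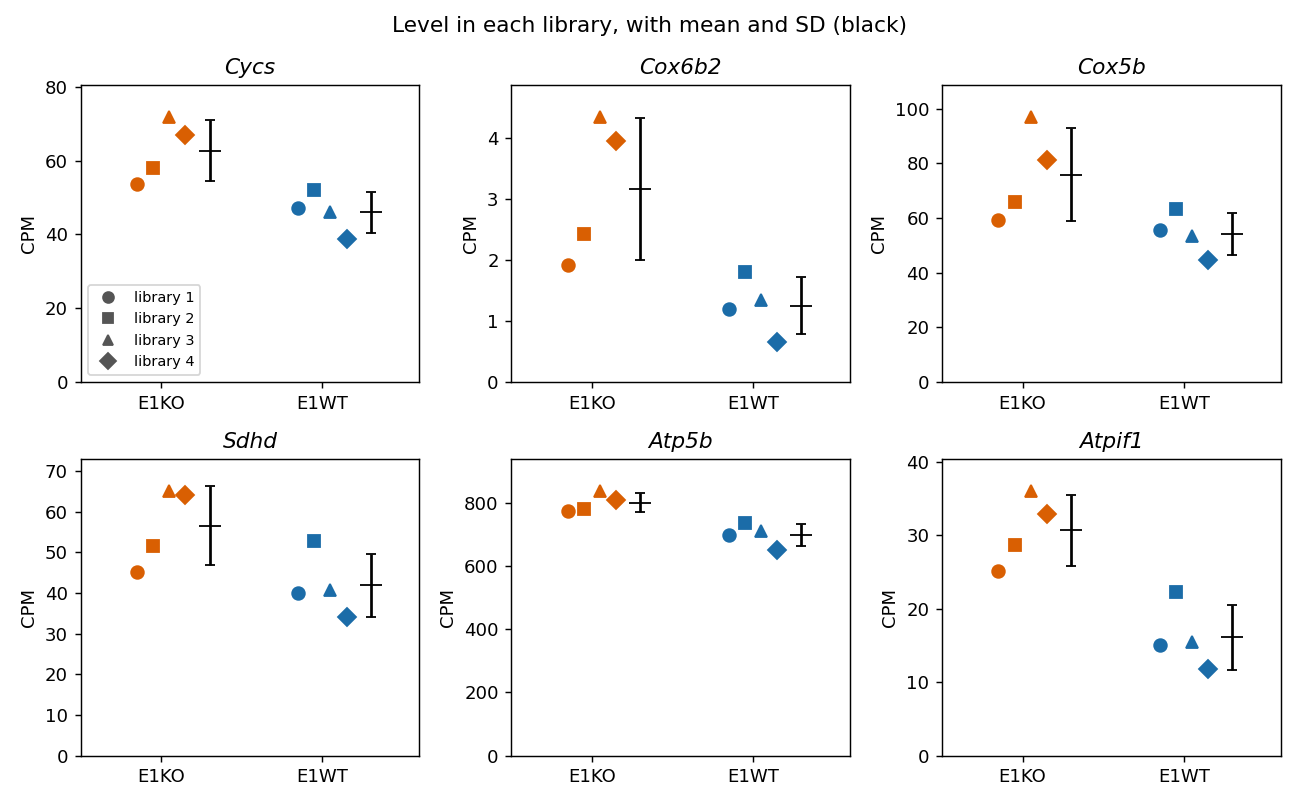
Level in CPM (vertical axis, from 0) of 5 respiratory chain genes and of Atpif1 in each library, E1KO libraries at the left of each panel and E1WT libraries at the right, with the marker shape giving the library number and black bars the mean and SD (n = 4 each). Cycs, Cox6b2, Atp5b and Atpif1 show no overlap between titles, while Cox5b and Sdhd overlap.

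Promoter windows of these 4 genes are shown because Cycs and Cox6b2 passed the test and Cox5b and Sdhd came nearest to it in their complexes by p. Each holds 300 bases from RefSeq on GRCm38.p6, the build that mm10 names, read along the gene's strand from 250 before the gene start to 50 after it. Capitals mark matches to GCGCANGCG, the letters of a site that nuclear respiratory factor 1 (NRF1) is known to bind, and to TGACGTCA, the palindrome that CREB is known to bind. Both strands were searched.
Cycs: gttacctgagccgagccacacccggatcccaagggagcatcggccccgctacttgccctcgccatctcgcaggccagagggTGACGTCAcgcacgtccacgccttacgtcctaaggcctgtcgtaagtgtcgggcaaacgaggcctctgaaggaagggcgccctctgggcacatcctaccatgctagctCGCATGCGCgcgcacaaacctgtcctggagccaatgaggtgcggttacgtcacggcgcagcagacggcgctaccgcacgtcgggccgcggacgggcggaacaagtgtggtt
Cox6b2: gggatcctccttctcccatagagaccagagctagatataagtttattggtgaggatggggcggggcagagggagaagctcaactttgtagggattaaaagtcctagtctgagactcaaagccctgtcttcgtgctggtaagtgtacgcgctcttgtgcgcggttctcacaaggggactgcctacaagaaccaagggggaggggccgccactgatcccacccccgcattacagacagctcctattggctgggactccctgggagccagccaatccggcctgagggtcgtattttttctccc
Sdhd: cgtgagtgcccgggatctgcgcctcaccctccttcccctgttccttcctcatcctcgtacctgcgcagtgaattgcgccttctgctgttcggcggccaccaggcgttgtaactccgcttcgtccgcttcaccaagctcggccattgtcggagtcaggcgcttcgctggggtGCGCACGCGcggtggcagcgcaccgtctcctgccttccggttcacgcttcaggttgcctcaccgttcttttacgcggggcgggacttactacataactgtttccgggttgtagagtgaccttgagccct
Cox5b: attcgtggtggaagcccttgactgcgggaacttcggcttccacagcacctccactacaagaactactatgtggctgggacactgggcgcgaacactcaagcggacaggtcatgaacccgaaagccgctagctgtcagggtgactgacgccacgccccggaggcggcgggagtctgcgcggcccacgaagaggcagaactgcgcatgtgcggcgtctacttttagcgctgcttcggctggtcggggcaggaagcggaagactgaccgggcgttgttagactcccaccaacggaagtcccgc

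The Cycs window (chr6:50566520-50566819, minus strand) held the CREB palindrome beginning at position -169 and the NRF1 letters, on the opposite strand, at -61; the matches do not overlap. Both sets of letters were settled after a longer NRF1 palindrome was not found in this window, so the matches are not a test. In rat, NRF1 and CREB are both known to bind the promoter of somatic cytochrome c. The Sdhd window (chr9:50603800-50604099, minus strand) held the NRF1 letters at -79. These letters are not in the Cox6b2 window (chr7:4753045-4753344, minus strand) or the Cox5b window (chr1:36691237-36691536, plus strand).

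Over the subunit genes, windows were found for 69 genes, and 30.4% of them held GCGCANGCG, against 7.03% of all 27025 RefSeq genes with windows of the same length. The CREB palindrome was in 7.25% against 2.03%. The letters CCGGAAGT, which GABPA (nuclear respiratory factor 2) is known to bind, were in 7.25% against 4.31%. ATGGCGGC, bound by YY1, was in 8.70% against 2.60%, and GGGGCGGGG, bound by SP1, in 15.9% against 12.9%. Every one of these strings was more frequent in the subunit windows, and the RefSeq windows were not matched for base content. These are shares of letters in windows, and most subunit genes with such a window did not pass the test between titles.

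Complex I takes electrons from NADH at the flavoprotein subunits Ndufv1 and Ndufv2 and passes them along iron-sulphur subunits such as Ndufs7. None of its 35 tested subunits passed the threshold by edgeR or DESeq2, 0 had an unadjusted edgeR p under 0.05, and 32 had a log2 fold between -0.2 and 0.2, in a range of -0.124 to 0.299. Ndufv2 and Ndufs7 had the smallest p. Ndufv2 averaged 51.7 ± 4.48 CPM in E1KO and 44.0 ± 3.64 CPM in E1WT (SD, n = 4 each; log2 fold 0.17, edgeR adjusted p = 0.141). Ndufs7 averaged 43.2 ± 6.80 CPM in E1KO and 33.9 ± 6.68 CPM in E1WT (log2 fold 0.29, edgeR adjusted p = 0.167). Ndufv1, which binds NADH, had 83.2 to 91.4 CPM in E1KO and 74.7 to 81.7 CPM in E1WT. The groups did not overlap in CPM but did with TMM scaling, and the log2 fold of 0.08 had an edgeR adjusted p of 0.305. Ndufa6 had the highest level per length in the complex, 95.2 CPM per kb of exon. Ndufs5 was listed at 0 counts in all 8 libraries, and 24.1% of its transcript windows are shared with a processed pseudogene.

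Among the 7 assembly factors, Ndufaf7, a methyltransferase that acts on an early complex I intermediate, had 18.5, 18.5, 19.9 and 16.8 CPM in E1KO libraries, against 14.9, 16.1, 15.8 and 14.3 CPM in E1WT libraries. The groups did not overlap, and the log2 fold of 0.21 ± 0.08 (SE) had an edgeR adjusted p of 0.0904. Ndufaf5, which modifies a subunit early in assembly, did not pass the threshold and had 5.82 to 8.15 CPM in E1KO and 6.18 to 8.41 CPM in E1WT (log2 fold -0.18, edgeR adjusted p = 0.371). As a group these genes were far lower than the subunits per length, at a median of 6.69 CPM per kb in E1KO and 6.22 CPM per kb in E1WT, against 44.0 and 38.6 CPM per kb for the tested subunits of complex I.

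In complex II, Sdha, the flavoprotein that oxidises succinate, was the steadiest of the 4 genes. It had 356, 340, 336 and 339 CPM in E1KO libraries, against 323, 326, 333 and 344 CPM in E1WT libraries, with a log2 fold of -0.01 ± 0.05 (SE, edgeR adjusted p = 0.877). Sdhb, the iron-sulphur subunit, had a log2 fold of 0.01 (adjusted p = 0.952), and Sdhc, the other membrane anchor, one of 0.20 (adjusted p = 0.243), both by edgeR. Within 1 enzyme of 4 proteins, the log2 folds thus ran from -0.01 for Sdha to 0.37 for Sdhd, and none of them passed the threshold.

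None of the 9 tested genes of complex III passed the threshold by edgeR or DESeq2, and 1 had an unadjusted edgeR p under 0.05. Uqcrfs1, the Rieske iron-sulphur protein, averaged 89.3 ± 3.88 CPM in E1KO and 77.3 ± 5.33 CPM in E1WT (SD, n = 4 each; log2 fold 0.15, edgeR adjusted p = 0.095). Cyc1, the cytochrome that passes electrons to cytochrome c, averaged 80.5 ± 15.7 CPM in E1KO and 67.0 ± 7.80 CPM in E1WT (log2 fold 0.20, edgeR adjusted p = 0.265). Uqcrh, a small acidic hinge protein, had the highest level per length in the complex at 192 CPM per kb, and a log2 fold of -0.003 (edgeR adjusted p = 0.987).

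Complex IV has several subunits with paired isoforms, and the somatic form led in each pair by CPM per kb of exon. Cox4i1 stood at 314 CPM per kb, and its lung-enriched counterpart Cox4i2 had 0 to 2 reads in E1KO libraries and 0 to 4 reads in E1WT libraries. Cox6a1 stood at 241 CPM per kb, and Cox6a2, the heart and muscle form, at 0.780 CPM per kb. Cox7a2 stood at 37.96 CPM per kb and Cox7a1, the other heart and muscle form, at 3.57 CPM per kb. Cox7a2l, a relative of Cox7a that takes part in joining complexes III and IV into supercomplexes, was highest in the whole complex at 328 CPM per kb. Cox8a stood at 150 CPM per kb, Cox8b, its muscle form, had 1 to 19 reads in E1KO libraries and 3 to 24 reads in E1WT libraries, and Cox8c was at 0 in all 8. Ndufa4, once assigned to complex I and now placed in complex IV, stood at 68.7 CPM per kb, and Ndufa4l2 had 2 to 5 reads in E1KO and 2 to 4 reads in E1WT. None of the somatic forms Cox4i1, Cox6a1, Cox6b1, Cox7a2, Cox8a and Ndufa4 had a log2 fold above 0.12, and their edgeR adjusted p ran from 0.655 to 0.899.

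The muscle form Cox7a1 did not follow the other subunits across libraries. It had 2.34, 2.12, 1.07 and 1.06 CPM in E1KO libraries, against 1.24, 1.03, 0.776 and 1.59 CPM in E1WT libraries. Its highest values were in E1KO 1 and E1KO 2 and, among E1WT, in library 4, where most subunit genes were at their lowest. The log2 fold was 0.44 ± 0.34 (SE), with an edgeR adjusted p of 0.387. Striated muscle markers (Acta1, Ckm, Myh6 and Myl2) summed to 0.281 to 6.35 CPM in E1KO and 5.01 to 11.1 CPM in E1WT, with Myl2 at 0, and their part in these isoforms was not tested.

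Complex V held the gene with the highest level per length of all those tested here. Atp5b, the catalytic beta subunit, stood at 391 CPM per kb and Atp5a1, the alpha subunit, at 247 CPM per kb. Atp5b had 774, 779, 839 and 807 CPM in E1KO libraries, against 697, 735, 712 and 652 CPM in E1WT libraries. The groups did not overlap, but the difference was small, a log2 fold of 0.13 ± 0.05 (SE) with an edgeR adjusted p of 0.0933. Atp5a1 had 623 to 662 CPM in E1KO and 563 to 602 CPM in E1WT, with no overlap in CPM but overlap with TMM scaling. Its log2 fold was 0.07 (edgeR adjusted p = 0.358). The 3 genes for the same ring subunit c had log2 folds of 0.27 for Atp5g1, 0.10 for Atp5g2 and -0.02 for Atp5g3, with edgeR adjusted p of 0.278 to 0.932. A share of 86.9% of the Atp5g2 windows and 76.0% of the Atp5l windows occur in other transcripts, so both counts are uncertain.

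Atp5k, the small subunit e that takes part in pairing ATP synthases, had the lowest fold of all the tested genes here. It had 4.98, 6.33, 10.4 and 8.01 CPM in E1KO libraries, against 10.4, 12.7, 9.21 and 6.81 CPM in E1WT libraries. The groups overlapped widely, and the log2 fold of -0.46 ± 0.22 (SE) had an edgeR adjusted p of 0.165. The X-linked genes of the chain did not pass the threshold: Ndufa1 had a log2 fold of 0.08 (adjusted p = 0.775), Ndufb11 one of -0.02 (adjusted p = 0.939) and Cox7b one of 0.05 (adjusted p = 0.882), all by edgeR. Fitting autosomal genes alone left the same Cycs and Cox6b2 calls. Both genes are autosomal and the same libraries were used, so this fit cannot test the part of the sex signal.

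All subunits together came to 5874, 6322, 7354 and 7078 CPM in E1KO libraries 1 to 4, against 6017, 6708, 6038 and 5214 CPM in E1WT libraries 1 to 4, a ratio of mean sums of 1.11. The titles overlapped, E1KO 3 was highest and E1WT 4 lowest. Complex I summed to 1447 ± 178 CPM in E1KO and 1323 ± 154 CPM in E1WT, complex III to 671 ± 67.4 CPM in E1KO and 601 ± 64.7 CPM in E1WT, complex IV to 1266 ± 196 CPM in E1KO and 1122 ± 174 CPM in E1WT, and complex V to 2699 ± 218 CPM in E1KO and 2428 ± 203 CPM in E1WT (SD, n = 4 each). In each of these the titles overlapped. Only the sum of complex II, at 494 to 529 CPM in E1KO and 461 to 492 CPM in E1WT, and Cycs alone did not overlap in CPM. These sums carry no TMM scaling, which would lower E1KO relative to E1WT. Divided by the TMM factors, the complex II sums overlap, since E1KO 1 and E1KO 2 fall below E1WT 2, while Cycs stays apart.

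**Figure D3:**
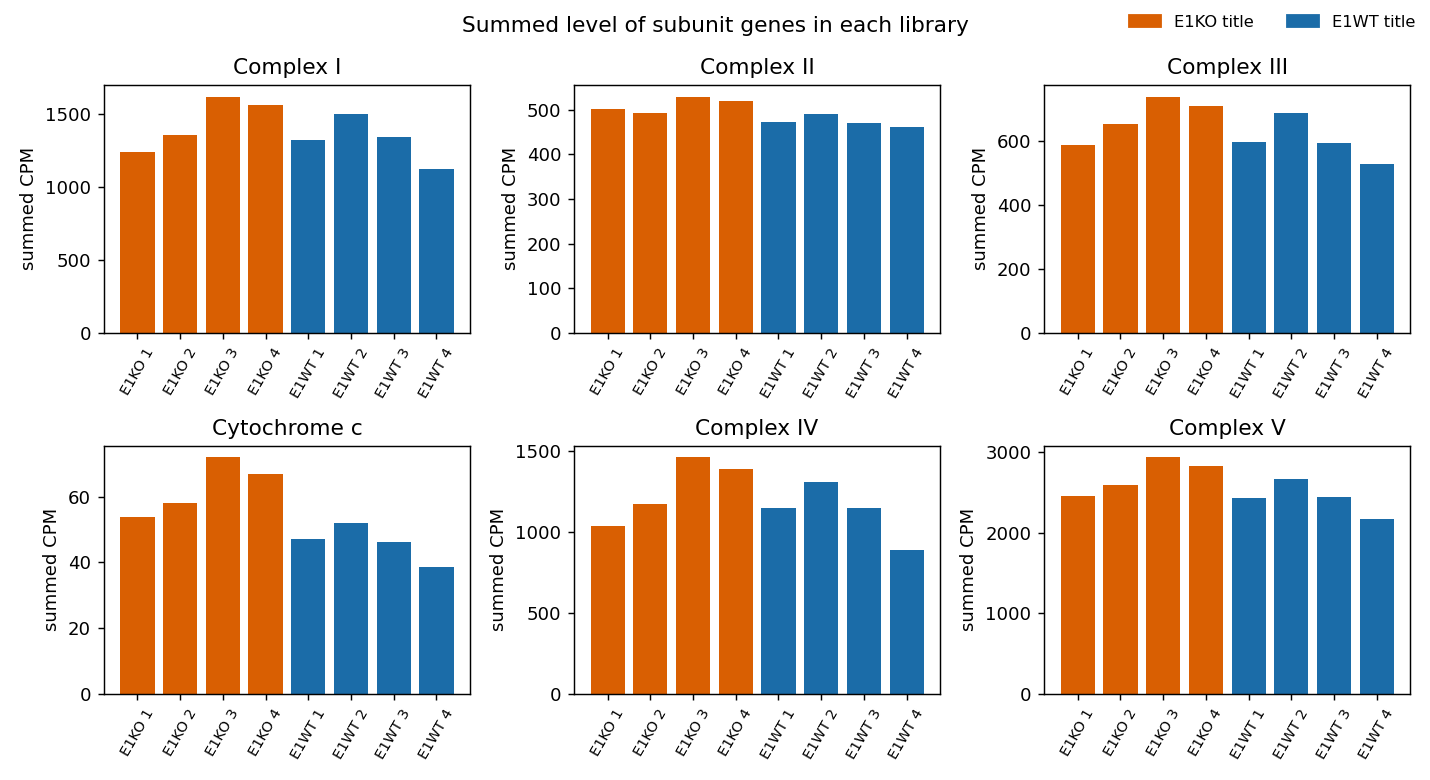
Summed CPM (vertical axis, from 0) of the subunit genes of each complex in the 8 libraries, E1KO libraries in orange at the left and E1WT libraries in blue at the right of each panel. In every panel E1KO 3 is the highest bar and E1WT 4 the lowest. E1KO 1 is below most E1WT libraries for complexes I, III and IV and above all of them for complex II and cytochrome c. The bars carry no TMM scaling, with which the complex II sums of the titles overlap.

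The share of each of the large complexes was close in both titles. Complex V took 40.6% ± 0.922 of the summed subunit CPM in E1KO and 40.6% ± 0.793 in E1WT, complex I 21.7% ± 0.472 in E1KO and 22.1% ± 0.342 in E1WT, and complex IV 18.9% ± 1.03 in E1KO and 18.6% ± 1.11 in E1WT (SD, n = 4 each). Cytochrome c made up 0.939% ± 0.0295 in E1KO and 0.766% ± 0.0182 in E1WT, with no overlap.

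Most subunit genes moved together from library to library. Of the 79 tested, 47 were at their highest in E1KO 3 and 66 at their lowest in E1WT 4. The median SD of log2 CPM within a title was 0.235 for them and 0.16 for all tested genes. The median pairwise Pearson correlation of their deviations from the title means, over the 8 libraries, was 0.896, as a description, since the genes share each library's depth and composition. Sdha, Cox7a1 and Cox6a2 ran opposite to the median of the other subunits, with a Pearson correlation of -0.852, -0.821 and -0.496 over the 8 libraries.

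These genes are short, and libraries differed in how levels followed transcript length. The median exon length was 865 bases for the tested subunit genes and 2914 bases for all tested genes, and 57.0% against 7.39% were under 1000 bases. In each library the level of a gene relative to its mean over libraries was correlated with exon length over all tested genes, which are not independent replicates. Spearman's rho was 0.294, 0.0028, -0.363 and -0.236 in E1KO libraries 1 to 4, and 0.0788, -0.326, 0.0881 and 0.368 in E1WT libraries 1 to 4. The median log2 deviation of the subunit genes was -0.168, -0.00294, 0.298 and 0.193 in E1KO libraries 1 to 4, and -0.0666, 0.131, -0.0597 and -0.335 in E1WT libraries 1 to 4. Subunit levels were high where long genes were low, and the reverse, in libraries of both titles.

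**Figure D4:**
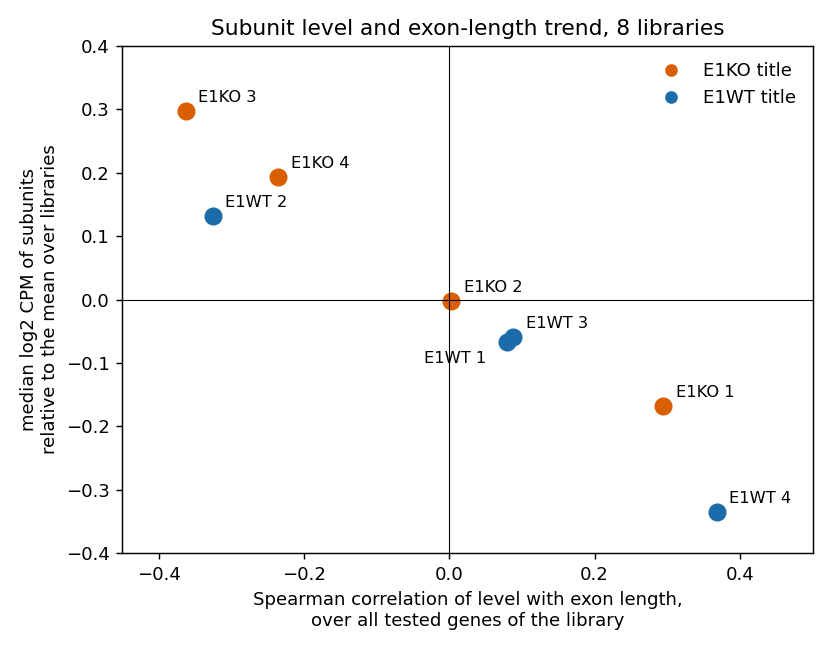
Median log2 CPM of the tested subunit genes relative to their mean over libraries (vertical axis) against the Spearman correlation of level with exon length over all tested genes (horizontal axis), 1 point a library, E1KO in orange and E1WT in blue. The points run from E1KO 3 at upper left (rho -0.363, deviation 0.298) to E1WT 4 at lower right (rho 0.368, deviation -0.335).

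With the length trend of each library removed as an offset in the same test, the median standard error of the subunit folds was 0.0759 in place of 0.129, and the median fold was 0.0797. Then 9 of the 88 genes passed an adjusted p of 0.05 by edgeR, 8 higher and 1 lower, which is 10.2% against 30.1% of all genes. The 8 higher were Cycs, Cox6b2, Cox5b, Sdhd, Ndufs7, Ndufa6, Atp5b and Atp5l, and the 1 lower was Atp5k. Cox5b then had a log2 fold of 0.40 (adjusted p = 0.00126), Sdhd one of 0.34 (adjusted p = 0.0067) and Atp5k one of -0.41 (adjusted p = 0.0453), all by edgeR. On this scale 66 of 79 subunit folds were positive.

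**Figure D5:**
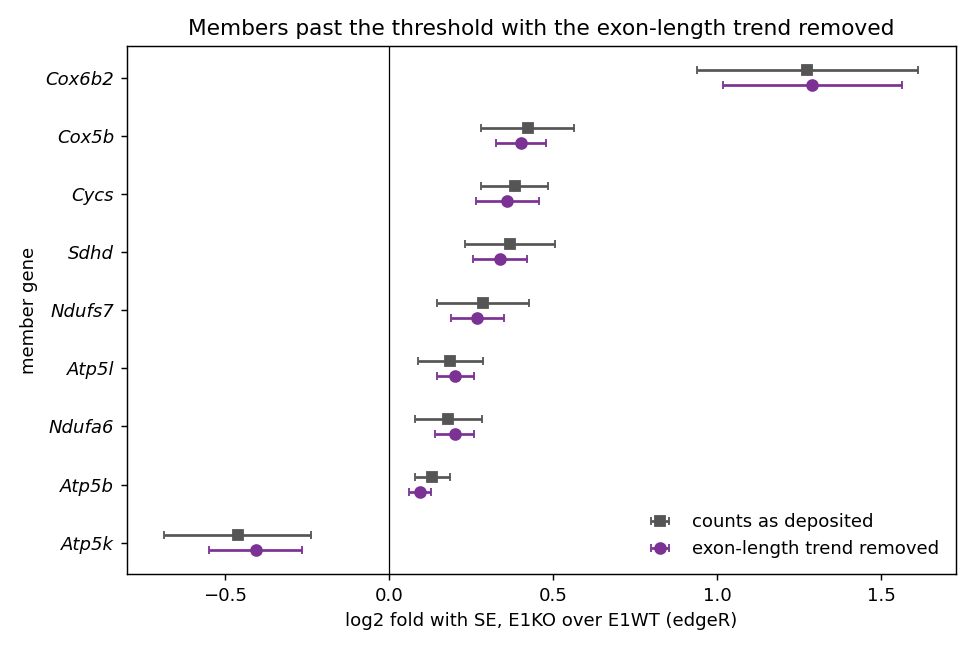
Log2 fold, E1KO over E1WT, with standard error (horizontal axis, edgeR) for the 9 genes past the threshold once the exon-length trend was removed, with grey squares for the counts as deposited and purple circles for the trend removed. The standard error of Cox5b was 0.0759 with the trend removed, in place of 0.141.

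Beside the subunits, proteins that control or build them were taken from lists of pathway genes. Atpif1, the inhibitor that stops ATP synthase from running backwards, had 25.1, 28.7, 36.1 and 32.8 CPM in E1KO libraries, against 15.0, 22.2, 15.4 and 11.7 CPM in E1WT libraries. The groups did not overlap. Its log2 fold of 0.87 ± 0.17 (SE) had an edgeR adjusted p of 0.00372, and it passed the threshold in all 19 settings tried, with a log2 fold of 0.74 to 1.06. The other 2 tested genes of the inhibitor and dimer list did not pass it.

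Of 39 tested assembly factors other than the Ndufaf genes, 0 were higher and 3 lower (7.69%, against 23.3% of all tested genes), with a median log2 fold of 0.02. Cox18, which inserts a complex IV subunit into the membrane, averaged 9.38 ± 1.02 CPM in E1KO and 12.4 ± 0.939 CPM in E1WT (SD, n = 4 each; log2 fold -0.46, edgeR adjusted p = 0.00883). Atpaf1, a chaperone of the ATP synthase beta subunit, averaged 33.7 ± 0.611 CPM in E1KO and 39.0 ± 1.80 CPM in E1WT (log2 fold -0.27, edgeR adjusted p = 0.00897). Ttc19, which takes part in complex III maturation, averaged 14.4 ± 1.43 CPM in E1KO and 20.1 ± 3.36 CPM in E1WT (log2 fold -0.54, edgeR adjusted p = 0.0113).

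In the coenzyme Q list of 13 tested genes, 1 was higher and 1 lower (15.4%). Coq4, which organises the synthesis complex, had a log2 fold of 0.68 (edgeR adjusted p = 0.037), and Adck4, an atypical kinase of the same complex, one of -0.54 (edgeR adjusted p = 0.0048). Of 14 tested tricarboxylic acid cycle genes, 0 were higher and 1 was lower (7.14%), Idh2, the mitochondrial NADP-dependent isocitrate dehydrogenase, with a log2 fold of -0.33 (edgeR adjusted p = 0.00827). Of 14 tested regulators of mitochondrial genes, 0 were higher and 3 were lower, a share of 21.4% that is near the 23.3% of all tested genes. Ppargc1b, a coactivator of mitochondrial gene programmes, averaged 13.5 ± 1.67 CPM in E1KO and 17.6 ± 1.29 CPM in E1WT (log2 fold -0.45, edgeR adjusted p = 0.0116). Nrf1 itself had 59.7 to 65.0 CPM in E1KO and 67.5 to 70.2 CPM in E1WT (log2 fold -0.20, edgeR adjusted p = 0.0175). Polg, the catalytic subunit of the mitochondrial DNA polymerase, had a log2 fold of -0.17 (edgeR adjusted p = 0.0187), a call that ended once the length trend was taken out (edgeR adjusted p = 0.447). Apart from Atpif1, how far the calls of the other list genes held across the settings is not given gene by gene here.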

How the data were processed

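The authors deposited, per library, raw counts of reads for 24421 gene symbols and 5 closing rows that name no gene. Those rows, 28.2% to 30.8% of a file in E1KO and 33.3% to 37.0% in E1WT, stayed out of library sizes and tests. Per the submitters' processing notes, reads were handled with TopHat2 2.1.0 and HTSeq 0.9.1 on mm10. Which annotation and strand setting were used is not given in the sources used here, so reads of overlapping antisense genes cannot be told apart. Apart from the design text, nothing ties libraries to separate animals, so the spread behind each p-value may be technical. Chi-square per degree of freedom between libraries of 1 title was 4.1 to 60.1, above sampling noise, and each counted as 1 replicate.

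CPM are deposited counts scaled to 1000000 over the gene rows of a library, with no further scaling. Folds come from edgeR 4.0.16 in R 4.3.3 (TMM scaling, default filter with count minimum 10 and total 15, quasi-likelihood test, Benjamini-Hochberg over 13333 genes), so CPM ratios run slightly above them. Errors of folds are standard errors from the F statistic. Exon length is that of 1 GENCODE transcript a gene on GRCm38, and levels per kb depend on that choice. Of the symbols, 23376 matched by name, 670 by an older symbol and 375 not at all. Promoter windows were matched for 77 of the 94 genes. The method was tested on simulated data, where it recovered 70% of genes changed 1.5-fold and 20% of those changed 1.25-fold. Of its calls, 7.75% were false at an adjusted p of 0.05. The simulation changed few genes, equally up and down, with independent noise and no length trend. Its rates therefore need not hold for short genes that move together, as here. DESeq2 1.42.0 and limma 3.58.1 gave alternatives.

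The genes and lists, the genes named (those called, the smallest p and highest level per length in each complex, isoform pairs, X-linked genes, Sdh genes, Cycs, Cyc1 and called list genes) and the alternatives were chosen with earlier results of these data known. The CREB palindrome was added, and the NRF1 letters shortened from a longer palindrome, after that palindrome was not found in the Cycs window. A further marker gene of naive CD4+ T cells is not reported here.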

Additional observations from a re-analysis of the deposited data

Results flagged for a closer look

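Of 116 groups of 4 libraries checked for a library that stands apart, 1 held such a library, where chance gives about 1 in 20. Cox8b, the muscle isoform of a complex IV subunit, was at 0.529 CPM in E1KO 1, against 0.0312 to 0.0650 CPM in the other E1KO libraries. The E1WT libraries had 0.743, 0.272, 0.106 and 0.656 CPM, and the gene did not pass the filter on low counts.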

How the results depend on the processing

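The number of genes higher, 2 by edgeR as reported, was 7 with library totals as the only scaling (7.95% of those tested called, against 24.8% of all genes), 5 by DESeq2 (5.68% against 27.9%), 4 with E1KO 1 and E1WT 4 both left out (4.55% against 23.5%) and 8 with the exon-length trend removed. As each library was left out, it ranged from 0 to 6. It was 0 without E1KO 3 (0% against 19.2% of all genes) and without E1KO 4 (0% against 16.3%). The 6 came without E1KO 1 (6.82% against 23.8%). Without E1WT 1 it was 1 (1.14% against 16.5%), and without E1WT 2 it was 5 (5.62% against 23.5%). The number lower, 0, became 1 (Atp5k) with the trend removed, and the number of Ndufaf genes higher, 0, became 1 (Ndufaf7) with library totals only. The causes were not tested. Over all genes, 1623 were higher and 1485 lower as reported, against 2257 and 1045 with library totals only, which moved the median log2 fold of all genes to 0.0694. With the replicate number as a block, 1 respiratory chain gene (Cox6b2) was higher (1.14% called, against 16.2% of all genes). Cycs then had an edgeR adjusted p of 0.0531. Deviations of same-numbered libraries had correlations of -0.0993 to 0.0141. These gave no sign of pairing by number but cannot exclude it, since each library's length trend is also in them. For the named genes, 750 alternative values kept direction and side of the threshold, 26 moved past it and 22 fell short of it. Cycs and Cox6b2 each passed the threshold in 16 of 19 settings and Atpif1 in all 19. The rest of the 22 were therefore for other genes called as reported, Polg among them. A further 44 values changed sign, all of them for genes not past the threshold in either fit. With library totals only, the log2 fold was 0.049 for Sdha, 0.059 for Uqcrh, 0.042 for Atp5g3 and 0.045 for Ndufb11. For Sdhb it was -0.00046 with DESeq2 size factors and by DESeq2, and -0.016 with the length trend removed, where Uqcrh had 0.019. With E1KO 1 and E1WT 4 both left out it was -0.020 for Sdhb and -0.025 for Cox4i1. As each library was left out, log2 folds ranged from -0.037 to 0.013 for Sdha, -0.053 to 0.069 for Sdhb, -0.069 to 0.080 for Uqcrh, -0.069 to 0.10 for Cox4i1, -0.21 to 0.00041 for Ndufaf1, -0.080 to 0.21 for Cox6a1, -0.14 to 0.38 for Cox6a2 and -0.039 to 0.21 for Cox6b1. The ranges were -0.052 to 0.20 for Cox7a2, -0.0098 to 0.25 for Cox8a, -0.12 to 0.082 for Atp5g3, -0.031 to 0.20 for Ndufa1, -0.11 to 0.071 for Ndufb11 and -0.13 to 0.19 for Cox7b. The causes of these changes were not tested. Cox4i2, Cox8b and Ndufa4l2 had too few reads to test, and Cox7b2, Cox8c and Ndufs5 were listed at 0 in all libraries.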
